A study of Homo sapiens with 12 samples.

Results

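The cluster of miR-183, miR-96 and miR-182, called the miR-183 cluster below, is a group of 3 microRNA genes on the long arm of human chromosome 7. Its 3 guide arms, hsa-miR-182-5p, hsa-miR-183-5p and hsa-miR-96-5p, were taken by name from a table of 1204 mature miRNAs, and all 3 were abundant enough to be tested. They were followed by small RNA sequencing in MV4-11 and Molm-14, human acute myeloid leukemia (AML) lines, each with an internal tandem duplication of the receptor gene FLT3. Each line was studied as MPC1 KO, in which MPC1 was deleted with a lentiCRISPRv2 construct that carries a GFP marker and 1 guide against MPC1, and as a nontargeting Empty Vector (EV) control. The 4 groups had 3 libraries each: MV4-11 EV, MV4-11 MPC1 KO, Molm-14 EV and Molm-14 MPC1 KO. MPC1 encodes a subunit of the carrier that brings pyruvate into mitochondria, and the study asked how its loss alters miRNA profiles. Small RNA libraries do not measure MPC1 mRNA, so the deletion was not checked here. The sources used here do not state whether the knockout cells were single clones, nor whether replicate libraries were made from separate cultures. P-values therefore measure the spread between these libraries, which may be technical.

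A microRNA is cut from a hairpin in a longer primary transcript, and 1 strand of it guides Argonaute to messenger RNAs that pair with its seed, the bases near its 5′ end. Hairpins that lie close together on 1 strand are commonly made from 1 shared transcript, yet the mature arms can still differ in how well each is cut, loaded and kept. The miR-183 cluster is best known from sensory cells, the photoreceptors of the retina and the hair cells of the inner ear, where mutations in the seed of miR-96 cause hereditary hearing loss. miR-96 and miR-182 are also known as repressors of the transcription factor FOXO1, and the cluster is high in many carcinomas.

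The mature sequences are shown because the arms resemble each other at the 5′ end but are not one and the same, and because sequences that are nearly the same could share reads. They are from RefSeq on GRCh38.p14, read 5′ to 3′, and capitals mark the seed (bases 2 to 8). The fourth is the miRNA that shares the seed of hsa-miR-96-5p.
hsa-miR-182-5p: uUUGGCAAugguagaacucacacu
hsa-miR-183-5p: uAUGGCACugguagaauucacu
hsa-miR-96-5p: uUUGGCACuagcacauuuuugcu
hsa-miR-1271-5p: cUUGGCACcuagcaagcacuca

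hsa-miR-182-5p (chr7:129770447-129770470, minus strand) and hsa-miR-183-5p (chr7:129774967-129774988, minus strand) were the closest pair over their whole length. They carried the same base at 18 of 22 positions counted from the 5′ end, but at only 5 of the 7 seed positions. hsa-miR-96-5p (chr7:129774739-129774761, minus strand) matched each of the other two at 6 of 7 seed positions, and over the whole length matched hsa-miR-182-5p at 12 of 23 positions and hsa-miR-183-5p at 13 of 22. The 3 seeds were therefore 3 different words. hsa-miR-1271-5p (chr5:176367960-176367981, plus strand) matched hsa-miR-96-5p at 7 of 7 seed positions and at 9 of 22 positions in all. Each of the 3 arms has a single locus in the RefSeq table.

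The 3 hairpins are all transcribed from the minus strand of chromosome 7. In the GENCODE annotation of GRCh38, MIR183 runs from 129774905 to 129775014, MIR96 from 129774692 to 129774769 and MIR182 from 129770383 to 129770492. MIR183 and MIR96 are separated by 135 bases, and MIR96 and MIR182 by 4199 bases, so that the whole cluster spans 4632 bases. Each hairpin lies in an intron of a long non-coding RNA on the same strand (129763060 to 129780220) and overlaps none of its exons. The nearest protein-coding genes are NRF1, on the opposite strand 13300 bases away, and UBE2H, on the same strand 55717 bases away.

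The total count of a library lay between 3870104 and 8683456, with MV4-11 EV replicate 1 the deepest, and every pair of replicates differed by more than sampling noise. Levels are given in CPM, counts scaled to a total of 1000000 after TMM normalization of the library. Blood markers were abundant in all 12 libraries, with hsa-miR-223-3p between 2678 and 3458 CPM and hsa-miR-142-3p between 17279 and 49607 CPM. The summed level of the 6 blood markers was 70012 to 83594 CPM in MV4-11 and 81741 to 106127 CPM in Molm-14. Not every member followed the sum. hsa-miR-155-5p (26482 to 48660 CPM) and hsa-miR-146a-5p (111 to 4346 CPM) were each highest in MV4-11 EV replicate 1. Another of them, hsa-miR-181a-5p, had at most 1.41 CPM. That arm has 2 loci, and how reads matching several places were counted is not given. Whether this lowered its count was not tested. The summed epithelial markers went the other way between the lines, with 196 to 257 CPM in MV4-11 and 104 to 136 CPM in Molm-14. Nearly all of that sum was hsa-miR-200c-3p, while hsa-miR-205-5p, a defining epithelial marker, had at most 2 counts in a library. On deletion of MPC1 the epithelial sum did not overlap in Molm-14, with 104 to 120 CPM in EV and 125 to 136 CPM in MPC1 KO, and it overlapped in MV4-11 (196 to 233 and 224 to 257 CPM). The blood sum likewise did not overlap in Molm-14, with 81741 to 87871 CPM in EV and 97746 to 106127 CPM in MPC1 KO, and overlapped in MV4-11. Of single miRNAs tested, 12.3% had MPC1 KO wholly above EV in Molm-14. The 2 neural markers were scarce, and their sum was higher in every Molm-14 library, with 0.883 to 2.39 CPM in MV4-11 and 3.75 to 6.79 CPM in Molm-14. Most of the sum in Molm-14 was hsa-miR-9-5p, which had 0.177 to 6.59 CPM over the 12 libraries. hsa-miR-124-3p had at most 1.17 CPM and at most 6 counts. The 2 erythroid markers summed to between 3.19 and 11.7 CPM with overlap between the lines, and the retinal marker hsa-miR-211-5p had at most 1 count. The part of these markers in the results below was not tested.

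The cluster was expressed at a modest level, higher in Molm-14 than in MV4-11. hsa-miR-182-5p had 36.3, 27.6 and 25.6 CPM in the MV4-11 EV libraries (mean 29.8 ± 5.66, SD, n = 3) and 20.4, 15.1 and 23.8 CPM in MV4-11 MPC1 KO (19.8 ± 4.43, SD, n = 3). In Molm-14 it had 88.6, 60.8 and 103 CPM in EV (84.3 ± 21.6, SD, n = 3) and 111, 88.4 and 116 CPM in MPC1 KO (105 ± 14.9, SD, n = 3). Every Molm-14 library was above every MV4-11 library, the EV and MPC1 KO libraries did not overlap in MV4-11, and they overlapped in Molm-14. Between Molm-14 libraries of the same number, whose deviations over the abundant miRNAs correlated weakly (0.143 to 0.331), the MPC1 KO value was the higher in each of the 3 pairs. Replicate 2 was below the group mean in all 4 groups for this arm.

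hsa-miR-183-5p had 28.2, 25.1 and 31.6 CPM in MV4-11 EV (28.3 ± 3.23, SD, n = 3) and 13.99, 20.4 and 15.2 CPM in MV4-11 MPC1 KO (16.5 ± 3.41, SD, n = 3). In Molm-14 it had 53.5, 57.6 and 56.2 CPM in EV (55.8 ± 2.11, SD, n = 3) and 77.1, 63.1 and 65.0 CPM in MPC1 KO (68.4 ± 7.62, SD, n = 3). Its 4 groups did not overlap at all, and ran from MV4-11 MPC1 KO at the bottom through MV4-11 EV and Molm-14 EV to Molm-14 MPC1 KO at the top. Taken pair by pair, MPC1 KO lay wholly below EV in MV4-11 for 7.13% of all miRNAs tested, and wholly above in Molm-14 for 12.3%. Molm-14 lay wholly above MV4-11 for 34.9% with EV and 36.1% with MPC1 KO. The share that separates all 4 groups, or all libraries of the lines, is not given here.

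hsa-miR-96-5p was the least abundant arm in every library. It had 4.50, 4.53 and 5.03 CPM in MV4-11 EV (4.69 ± 0.295, SD, n = 3) and 4.86, 5.35 and 5.65 CPM in MV4-11 MPC1 KO (5.29 ± 0.401, SD, n = 3). In Molm-14 it had 23.4, 24.0 and 26.1 CPM in EV (24.5 ± 1.43, SD, n = 3) and 29.8, 44.6 and 30.5 CPM in MPC1 KO (35.0 ± 8.33, SD, n = 3). The MV4-11 groups overlapped, the Molm-14 groups did not, and MPC1 KO replicate 2 stood well above the other Molm-14 libraries.

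The counts behind these levels set how finely they can be read. hsa-miR-182-5p had 90 to 619 counts in a library, hsa-miR-183-5p 72 to 429 and hsa-miR-96-5p 20 to 243. Counting error alone was 4.02 to 10.5% for hsa-miR-182-5p, 4.83 to 11.8% for hsa-miR-183-5p and 6.42 to 22.4% for hsa-miR-96-5p. The sparsest value, the 20 counts of hsa-miR-96-5p in MV4-11 EV replicate 2, corresponds to 4.57 CPM of the raw total with an exact Clopper-Pearson 95% interval of 2.79 to 7.06. Such intervals cover counting error only. By mean level in MV4-11 EV, hsa-miR-182-5p, hsa-miR-183-5p and hsa-miR-96-5p ranked 240, 243 and 424 among the 659 miRNAs tested, and in Molm-14 MPC1 KO 161, 194 and 234. These ranks set counts of mature miRNAs of about equal length side by side, and how well each sequence is captured in a library was not measured.

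**Figure D1:**
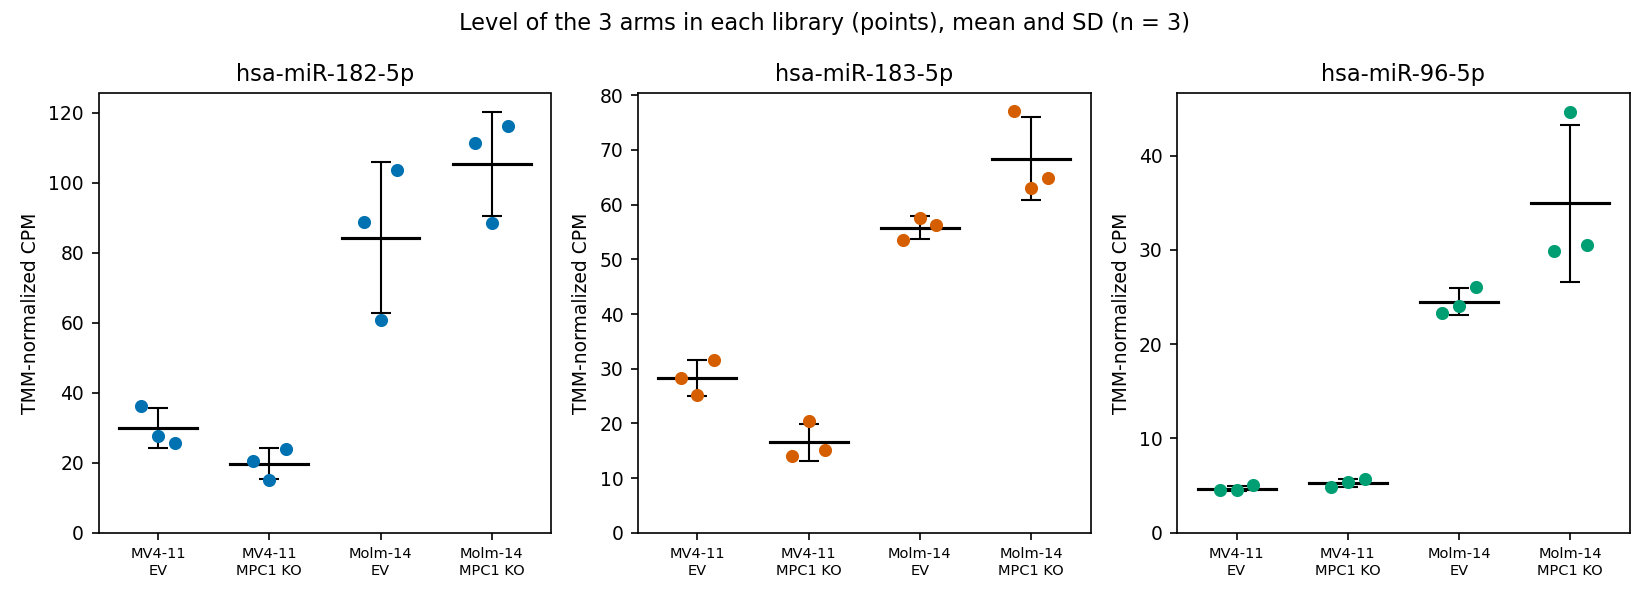
Level of hsa-miR-182-5p, hsa-miR-183-5p and hsa-miR-96-5p in TMM-normalized CPM (vertical axes, linear from 0) in the 4 groups; points are libraries, the wide line is the mean and the bar the SD (n = 3). All 6 Molm-14 libraries sit above all 6 MV4-11 libraries for each arm, and hsa-miR-96-5p stays between 4.50 and 5.65 CPM in MV4-11.

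By the fitted values, the gap between the cell lines was wider for each arm than its change on deletion of MPC1, as the plot of levels by group shows. All 3 arms were higher in Molm-14 EV than in MV4-11 EV by edgeR's quasi-likelihood test, fitted to all 12 libraries with Benjamini-Hochberg adjustment over 659 miRNAs. hsa-miR-96-5p was 5.23-fold higher (log2 fold change 2.39 ± 0.21, standard error or SE, edgeR adjusted p = 4.06e-10). hsa-miR-182-5p was 2.79-fold higher (1.48, SE 0.19, edgeR adjusted p = 1.03e-06) and hsa-miR-183-5p 1.97-fold higher (0.98, SE 0.15, edgeR adjusted p = 4.22e-06). Differences between the lines were common, since 61.9% of all miRNAs tested differed at an adjusted p under 0.05, 33.5% were higher in Molm-14 EV and 34.9% had all 3 libraries above. The median log2 difference was 1.48 over the 3 arms and 0.06 over all miRNAs tested.

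Between the MPC1 KO groups the fitted gap was wider for each arm, and whether it differed from that between the EV groups is tested below as the difference of the MPC1 KO effects. hsa-miR-96-5p was 6.59-fold higher in Molm-14 MPC1 KO than in MV4-11 MPC1 KO (log2 fold change 2.72 ± 0.20, SE, edgeR adjusted p = 1.46e-11). hsa-miR-182-5p was 5.33-fold higher (2.41, SE 0.20, edgeR adjusted p = 1.21e-09) and hsa-miR-183-5p 4.12-fold higher (2.04, SE 0.16, edgeR adjusted p = 3.29e-11). The background was again large, with 62.4% of all miRNAs tested called in either direction, 32.9% higher in Molm-14 MPC1 KO and 36.1% with all 3 libraries above. In both genotypes the order of the fold differences was hsa-miR-96-5p, hsa-miR-182-5p, hsa-miR-183-5p. In the EV cells the 95% confidence interval for hsa-miR-96-5p (1.96 to 2.82) lay above those for hsa-miR-182-5p (1.08 to 1.89) and hsa-miR-183-5p (0.67 to 1.29), while in the MPC1 KO cells the interval for hsa-miR-96-5p (2.31 to 3.13) overlapped those of the others.

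In MV4-11, deletion of MPC1 went with a lower level of hsa-miR-183-5p, while hsa-miR-96-5p, whose hairpin is its near neighbour, showed no detectable change. hsa-miR-183-5p fell by 0.77 on the log2 scale, or 1.71-fold (SE 0.16, 95% confidence interval -1.10 to -0.44, edgeR adjusted p = 0.00427), and it stood at place 12 of 659 when miRNAs were ordered by p. hsa-miR-182-5p had a log2 fold change of -0.62 (SE 0.21, 95% confidence interval -1.05 to -0.18) and did not pass (edgeR adjusted p = 0.115). hsa-miR-96-5p had a log2 fold change of 0.18 (SE 0.24, 95% confidence interval -0.31 to 0.68, edgeR adjusted p = 0.816), an interval that holds 0 and changes of either sign. Its value was 0.12 without MV4-11 MPC1 KO replicate 3 and 0.07 with upper-quartile factors. Thus 1 of the 3 arms was called, lower, where 1.06% of all miRNAs tested were called lower and 3.03% in either direction. For hsa-miR-182-5p and hsa-miR-183-5p the highest MPC1 KO library was below the lowest EV library, which was so for 7.13% of all miRNAs tested. The call for hsa-miR-183-5p was lost without MV4-11 MPC1 KO replicate 1 (log2 fold change -0.66, edgeR adjusted p = 0.0544), and hsa-miR-182-5p passed with no filter on low counts (edgeR adjusted p = 0.0120). It also passed with replicate number as a block, either in all libraries (edgeR adjusted p = 0.0294) or in those of Molm-14 alone (edgeR adjusted p = 0.0375). MV4-11 libraries of the same number did not all deviate together over the abundant miRNAs and were not taken as pairs. The log2 fold change stayed at -0.62 with either block, while the SE was 0.16 and 0.17 instead of 0.21.

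In Molm-14 the 3 arms had log2 fold changes above 0 of much the same size, and none passed the test. The largest was that of hsa-miR-96-5p, 0.52 (SE 0.17, 95% confidence interval 0.16 to 0.87, edgeR adjusted p = 0.0689). hsa-miR-182-5p had 0.32 (SE 0.18, 95% confidence interval -0.06 to 0.69, edgeR adjusted p = 0.366), and hsa-miR-183-5p had 0.30 (SE 0.14, 95% confidence interval -0.00068 to 0.59, edgeR adjusted p = 0.255). For hsa-miR-182-5p the value moved with single libraries, to 0.16 when Molm-14 EV replicate 2 was left out and to 0.50 when replicate 3 of that group was. With replicate number as a block within Molm-14 it was 0.34 (edgeR adjusted p = 0.186). At unadjusted p these were 0.00606 for hsa-miR-96-5p, 0.0977 for hsa-miR-182-5p and 0.0505 for hsa-miR-183-5p in edgeR's test. Of all miRNAs tested, 2.73% were called higher in Molm-14 MPC1 KO and 6.83% were called in either direction. For hsa-miR-183-5p and hsa-miR-96-5p the lowest MPC1 KO library was above the highest EV library, where 12.3% of all miRNAs tested were so placed. Scaled by upper-quartile factors, hsa-miR-96-5p passed (0.59, edgeR adjusted p = 0.0334), and without Molm-14 MPC1 KO replicate 2, its highest library, the log2 fold change was 0.32 (edgeR adjusted p = 0.464).

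The change on deletion of MPC1 differed between the cell lines for 2 of the 3 arms when the difference itself was tested. For hsa-miR-183-5p the Molm-14 change exceeded the MV4-11 change by 1.07 on the log2 scale (SE 0.22, 95% confidence interval 0.62 to 1.51, edgeR adjusted p = 0.00346), and it was at place 9 of 659 in the order of p. For hsa-miR-182-5p the difference was 0.93 (SE 0.28, 95% confidence interval 0.36 to 1.51, edgeR adjusted p = 0.0454). For hsa-miR-96-5p it was 0.33 (SE 0.30, 95% confidence interval -0.28 to 0.95, edgeR adjusted p = 0.598), an interval that holds 0 and also the value for hsa-miR-182-5p. Leaving out replicate 2 of Molm-14 MPC1 KO gave 0.13 and upper-quartile factors gave 0.52, and it passed with neither. Among all miRNAs tested, 2.43% had a difference called in this direction and 6.68% in either. The call for hsa-miR-182-5p was close to the threshold and was lost without any 1 of 7 libraries (MV4-11 EV replicate 1, MV4-11 MPC1 KO replicates 1 and 2, Molm-14 EV replicates 1 and 2, Molm-14 MPC1 KO replicates 1 and 3), with adjusted p up to 0.140 from edgeR. That for hsa-miR-183-5p held without each of the 12 libraries in turn, with adjusted p up to 0.0272 from edgeR. These comparisons share libraries with those within and between the lines, so they are other views of the same 12 values and not separate evidence.

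**Figure D2:**
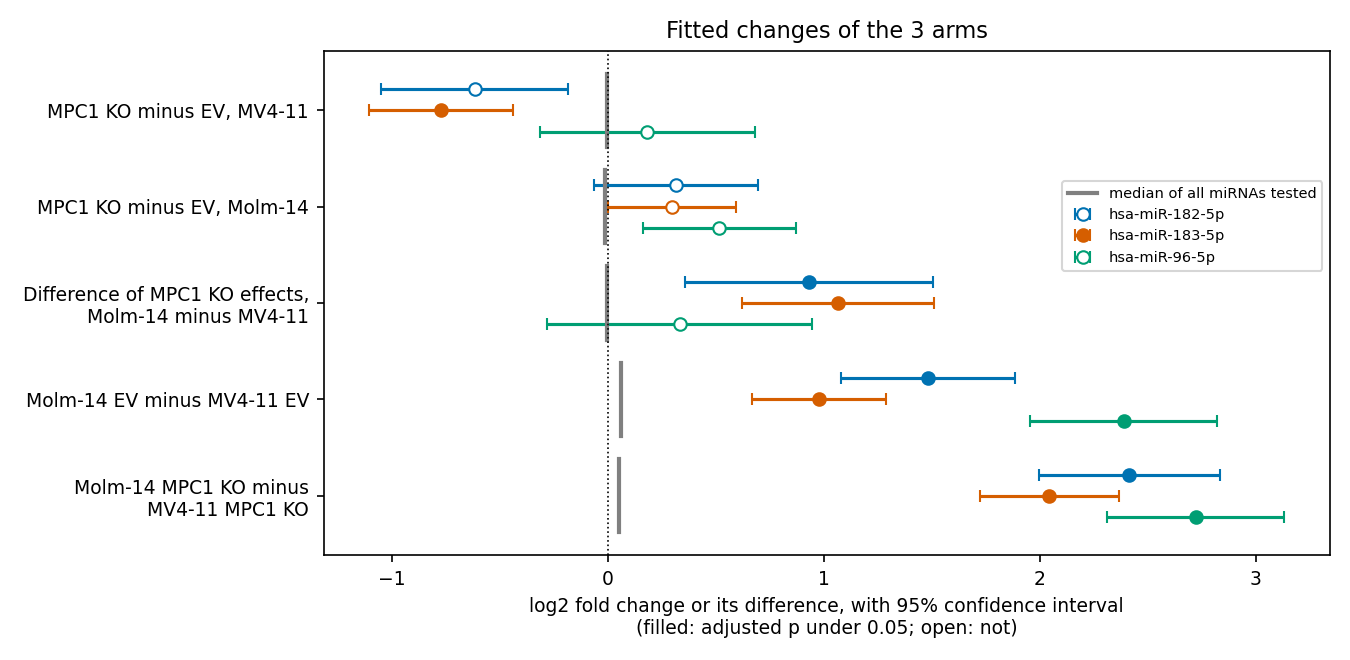
Fitted log2 fold change of each arm, or for the third row the difference of the log2 fold changes, with its 95% confidence interval (horizontal axis); filled points have an adjusted p under 0.05 and grey bars mark the median of the 659 miRNAs tested. On deletion of MPC1 hsa-miR-182-5p (-0.62) and hsa-miR-183-5p (-0.77) lie left of 0 in MV4-11 and the 3 arms lie between 0.30 and 0.52 in Molm-14, while both rows of line differences lie from 0.98 upwards.

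**Figure D3:**
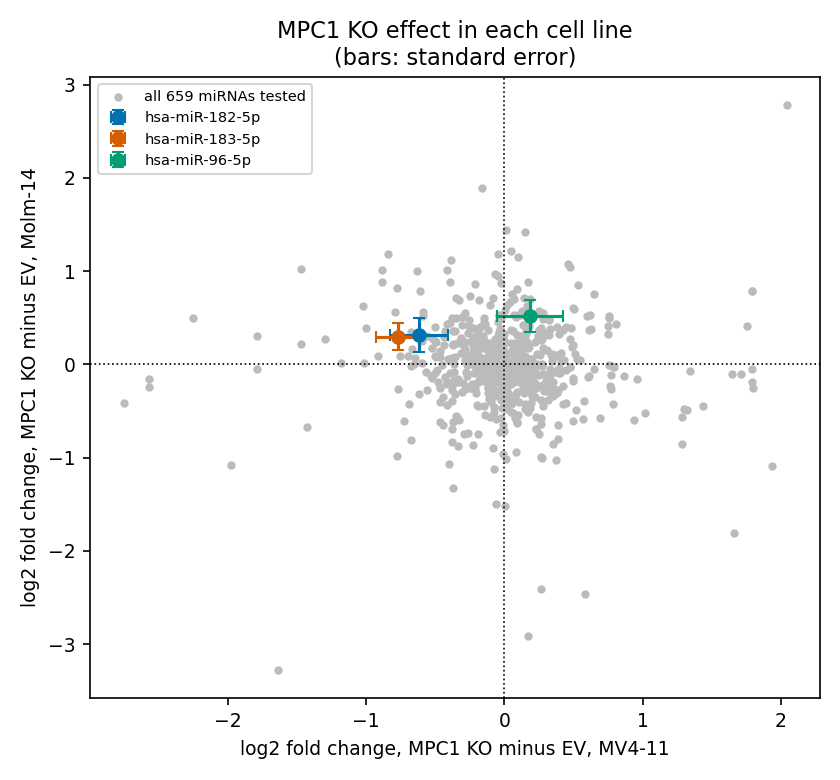
Log2 fold change on deletion of MPC1 in MV4-11 (horizontal axis) and Molm-14 (vertical axis) for the 659 miRNAs tested (grey) and the 3 arms (coloured, bars show the SE). hsa-miR-182-5p and hsa-miR-183-5p lie together in the upper left, at -0.62 and -0.77 in MV4-11, and hsa-miR-96-5p lies apart from them at 0.18.

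Summed over the 3 arms, the cluster took a small part of each library, and the sum separated all 4 groups. The 3 arms together had 63.2 ± 4.67 CPM of the raw total with EV and 43.9 ± 3.14 CPM with MPC1 KO in MV4-11 (SD, n = 3). The values for Molm-14 were 158 ± 20.0 CPM with EV and 205 ± 18.3 CPM with MPC1 KO (SD, n = 3). The mean over the 6 Molm-14 libraries was 3.39 times that over the 6 MV4-11 libraries (p = 0.00216 by a two-sided exact permutation test, which is the lowest that 6 against 6 allow, and 0.00649 after Benjamini-Hochberg adjustment over 3 tests). Within a line the MPC1 KO mean was 0.695 times the EV mean in MV4-11 and 1.30 times in Molm-14. The groups did not overlap in either line, but 3 libraries against 3 cannot give an exact permutation p below 0.1, which was the value in both. Among single miRNAs tested, MPC1 KO lay wholly below EV in MV4-11 for 7.13% and wholly above in Molm-14 for 12.3%. Molm-14 lay wholly above MV4-11 for 34.9% with EV and 36.1% with MPC1 KO. The sum holds the same counts as the arms above and is not separate evidence.

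The proportions of the arms differed between the cell lines for 1 of the 3 pairs, hsa-miR-96-5p and hsa-miR-183-5p. Ratios of counts within a library are free of any scaling between libraries, and they were compared between groups on the log2 scale. There were between 0.161 and 0.184 counts of hsa-miR-96-5p for each count of hsa-miR-183-5p for MV4-11 EV and between 0.265 and 0.376 for MV4-11 MPC1 KO. The same ratio was between 0.418 and 0.465 when the cells were Molm-14 EV, and between 0.388 and 0.707 when MPC1 was deleted in them. All 6 Molm-14 libraries were above all 6 MV4-11 libraries, and the MV4-11 EV libraries were lowest with no overlap with MV4-11 MPC1 KO.

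The mean log2 ratio of hsa-miR-96-5p to hsa-miR-183-5p was -2.09 ± 0.554 over the 6 MV4-11 libraries and -1.09 ± 0.304 over the 6 Molm-14 libraries (SD). The difference of 1.004 had an exact two-sided permutation p of 0.00216, the smallest the design allows, and an adjusted p of 0.0195 over the 9 ratio tests. By genotype, the means were -2.57 in MV4-11 EV against -1.19 in Molm-14 EV, and -1.61 in MV4-11 MPC1 KO against -0.99 in Molm-14 MPC1 KO. Within MV4-11 the MPC1 KO mean exceeded the EV mean by 0.96 (exact permutation p = 0.1, the smallest for 3 against 3), and within Molm-14 by 0.20 (exact permutation p = 0.7).

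The ratios of the other pairs did not pass the test. For hsa-miR-96-5p over hsa-miR-182-5p the Molm-14 mean exceeded the MV4-11 mean by 0.57 on the log2 scale (exact permutation p = 0.0584, adjusted p = 0.180 over 9 tests). By genotype, its means were -2.63 in MV4-11 EV against -1.75 in Molm-14 EV, with no overlap. They were -1.86 in MV4-11 MPC1 KO against -1.60 in Molm-14 MPC1 KO, with overlap. Within MV4-11 the MPC1 KO mean of this ratio exceeded the EV mean by 0.77 with no overlap (exact permutation p = 0.1, the smallest possible), and within Molm-14 by 0.14 (exact permutation p = 0.6). hsa-miR-182-5p and hsa-miR-183-5p stayed near each other, with 0.739 to 1.57 counts of the first for each count of the second in the MV4-11 libraries and 1.06 to 1.84 in Molm-14. Their log2 ratio differed by 0.43 between the lines (exact permutation p = 0.0801, adjusted p = 0.180), by 0.19 on deletion of MPC1 in MV4-11 (exact permutation p = 0.6) and by 0.06 in Molm-14 (exact permutation p = 0.9).

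**Figure D4:**
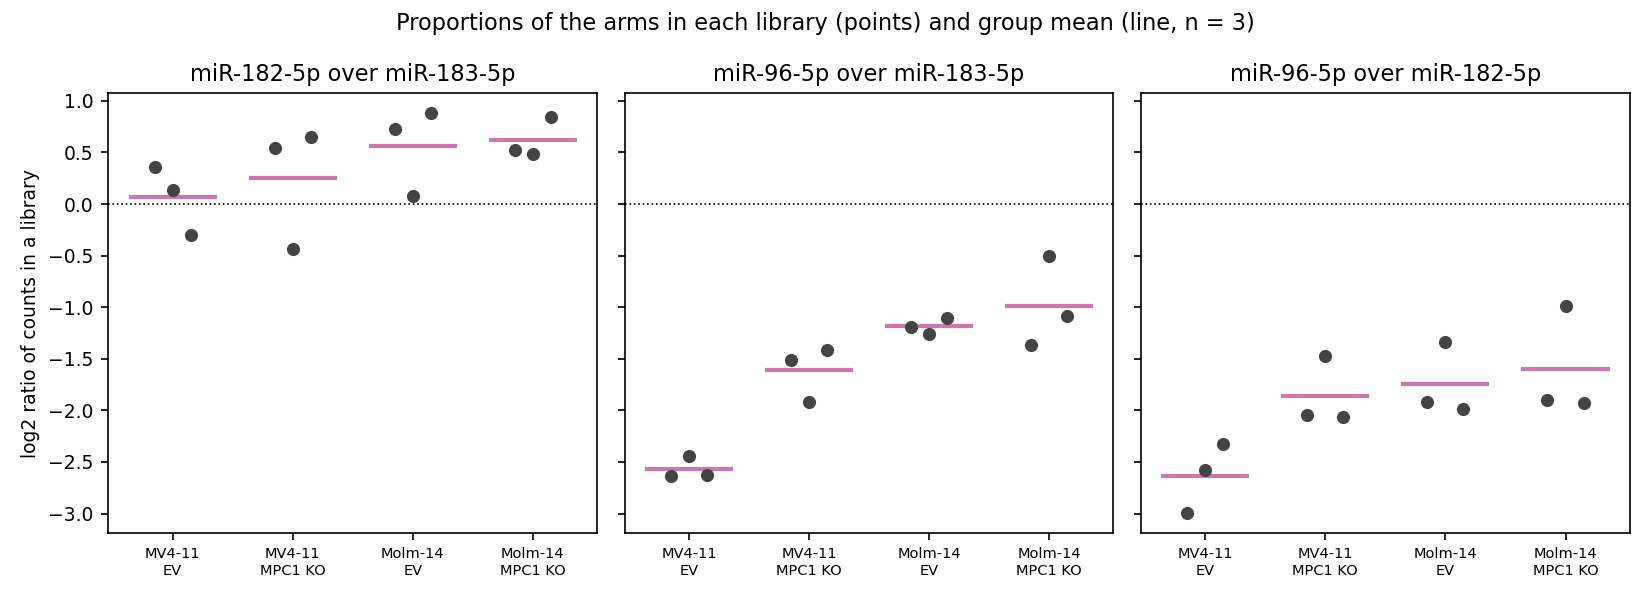
Log2 ratio of the counts of each pair of arms within a library (vertical axis, shared by the panels), by group; points are libraries and the line is the mean (n = 3). For hsa-miR-96-5p over hsa-miR-183-5p the MV4-11 EV libraries lie lowest, with a mean of -2.57, and the Molm-14 MPC1 KO libraries scatter most.

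As shares of the cluster's counts, hsa-miR-182-5p held 47.3 ± 5.76% in MV4-11 EV and 47.4 ± 9.14% in MV4-11 MPC1 KO, and 50.6 ± 6.97% and 50.3 ± 4.95% in the same groups of Molm-14 (SD, n = 3). hsa-miR-183-5p held 45.2 ± 5.06%, 39.9 ± 8.80%, 34.3 ± 5.38% and 32.7 ± 2.38% in that order. hsa-miR-96-5p held 7.50 ± 0.850%, 12.7 ± 0.374%, 15.0 ± 1.603% and 16.9 ± 5.03%. The share of hsa-miR-182-5p thus moved by less than the spread between replicates. For hsa-miR-183-5p and for hsa-miR-96-5p the lowest and highest means lay further apart than that spread.

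Within a group, arms could deviate in different directions in the same library. In MV4-11 MPC1 KO replicate 2, hsa-miR-182-5p was 0.36 below its group mean on the log2 scale while hsa-miR-183-5p was 0.31 above. In Molm-14 MPC1 KO replicate 2, hsa-miR-96-5p was 0.37 above its group mean while hsa-miR-182-5p was 0.24 below.

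The likeness of whole profiles was measured as the root mean square difference of log2 CPM over the 12 libraries, each miRNA centred on its own mean, so that 0 is an identical profile. The points share their libraries, and this is a description with no test. hsa-miR-182-5p and hsa-miR-183-5p differed by 0.403, hsa-miR-182-5p and hsa-miR-96-5p by 0.487, and hsa-miR-183-5p and hsa-miR-96-5p by 0.613. Measured from hsa-miR-182-5p, the median of the 658 other miRNAs was 1.08, and hsa-miR-183-5p was the 8th nearest and hsa-miR-96-5p the 31st. Measured from hsa-miR-183-5p, hsa-miR-182-5p was the 27th and hsa-miR-96-5p the 132nd, and from hsa-miR-96-5p they were the 27th (hsa-miR-182-5p) and the 50th (hsa-miR-183-5p). The cluster neighbours were thus among the nearer profiles but never the nearest.

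For hsa-miR-182-5p the nearest profiles were those of hsa-miR-4521 (0.203), hsa-miR-641 (0.217) and hsa-miR-19b-3p (0.267). For hsa-miR-183-5p they were hsa-miR-573 (0.288), hsa-miR-548u (0.300) and hsa-miR-331-5p (0.311). For hsa-miR-96-5p they were hsa-miR-497-5p (0.283), hsa-let-7b-5p (0.283) and hsa-miR-4661-5p (0.296). Each of these 9 had a higher mean CPM in both Molm-14 groups than in either MV4-11 group, as the arms had. They were picked for likeness over these same libraries, so this shared direction largely follows from the choice.

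The opposite arms of the hairpins were nearly absent, and what there was lay mainly in Molm-14. hsa-miR-182-3p had 0 counts in all 6 MV4-11 libraries, 0 of 32852902 counts, which by a limit of 3 counts allows up to 0.0913 CPM of the raw total, and up to 0.112 CPM by the exact Clopper-Pearson 95% interval. In Molm-14 it had 2 to 6 counts in each of the 6 libraries, 19 of 29382932 counts or 0.647 CPM (exact Clopper-Pearson 95% interval 0.389 to 1.01). hsa-miR-183-3p had 3 counts in all, in 2 of the 6 MV4-11 libraries (0.0913 CPM, 95% interval 0.0188 to 0.267). In Molm-14 it had 12 counts, with at least 1 in each of the 6 libraries (0.408 CPM, 95% interval 0.211 to 0.713). Neither arm passed the filter on low counts, and hsa-miR-96-3p was not among the 1204 mature miRNAs counted.

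hsa-miR-1271-5p, which carries the seed of hsa-miR-96-5p from a locus on chromosome 5, was scarcer still than hsa-miR-96-5p. It had 4 to 21 counts in a library and means of 1.55 ± 0.478 CPM (EV) and 1.59 ± 0.671 CPM (MPC1 KO) among MV4-11 libraries, and of 1.83 ± 1.07 CPM (EV) and 3.42 ± 0.527 CPM (MPC1 KO) among Molm-14 libraries (SD, n = 3). It was higher in Molm-14 MPC1 KO than in MV4-11 MPC1 KO (log2 fold change 1.09 ± 0.41, SE, edgeR adjusted p = 0.0235). The EV groups differed by a log2 fold change of 0.20 (SE 0.46, edgeR adjusted p = 0.723), and its MPC1 KO libraries in Molm-14 overlapped the EV libraries (0.87, edgeR adjusted p = 0.250).

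Other clusters serve to show how far arms of 1 cluster spread in these libraries. On deletion of MPC1 in MV4-11 the log2 fold changes of the 3 arms of the miR-183 cluster spanned 0.95, those of the 3 guide arms of the miR-106b-25 cluster spanned 0.24, and those of the 4 guide arms of the miR-17-92 cluster with a single locus spanned 0.11. In Molm-14 the same spans were 0.22, 0.32 and 0.22. Between the EV groups they were 1.41, 0.27 and 0.58, and between the MPC1 KO groups 0.68, 0.22 and 0.31. With hsa-miR-19b-3p and hsa-miR-92a-3p included, which have 2 loci each, the 6 guide arms of miR-17-92 spanned 0.46 in MV4-11 and 0.28 in Molm-14, 1.44 between the EV groups and 1.83 between the MPC1 KO groups. Over all its arms miR-17-92 thus spread as widely between the lines as the miR-183 cluster, or more widely, and less widely on deletion of MPC1 in MV4-11. The spans are set beside each other as a description, and hsa-miR-96-5p had 20 to 37 counts in an MV4-11 library, with counting errors of 16.4 to 22.4%.

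The miR-17-92 arms, which are known to promote growth of blood cancers, lay on the same sides of 0 as hsa-miR-182-5p and hsa-miR-183-5p. On deletion of MPC1 their log2 fold changes ran from -0.52 to -0.06 in MV4-11 and from 0.06 to 0.34 in Molm-14. None of the 6 was called in either line, where 3.03% and 6.83% of all miRNAs tested were. For the difference of the MPC1 KO effects 2 of the 6 were called higher, hsa-miR-18a-5p (0.43, edgeR adjusted p = 0.0378) and hsa-miR-19a-3p (0.60, edgeR adjusted p = 0.0427), beside 2.43% of all. All 6 were called higher in Molm-14 in both genotypes, beside 33.5% with EV and 32.9% with MPC1 KO. Of the 3 miR-106b-25 arms, none was called on deletion of MPC1 or for the difference, 1 was called higher between the EV groups and none between the MPC1 KO groups.

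Of the mature miRNAs whose hairpins lie within 2 Mb of the cluster, 5 were tested: hsa-miR-29a-3p, hsa-miR-29a-5p, hsa-miR-29b-1-5p, hsa-miR-335-3p and hsa-miR-335-5p. On deletion of MPC1 in MV4-11 none of them was called, and their log2 fold changes were between 0.10 and 0.41, on the other side of 0 from that of hsa-miR-183-5p. In Molm-14, hsa-miR-335-3p was called, lower (-0.47, edgeR adjusted p = 0.000834), where 4.1% of all miRNAs tested were, and the 5 ranged from -0.47 to 0.03. For hsa-miR-335-3p the difference of the MPC1 KO effects was also called (-0.66, edgeR adjusted p = 0.00166), where 4.25% of all were called in that direction, opposite to that of hsa-miR-183-5p. Between the EV groups 4 of the 5 were called higher in Molm-14, beside 33.5% of all miRNAs tested, with log2 fold changes of the 5 from 0.20 to 1.48. Between the MPC1 KO groups 3 of the 5 were, beside 32.9%, with a range from -0.01 to 0.85.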

How the data were processed

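The authors deposited raw counts, whole numbers of small RNA reads per mature miRNA in each of 12 libraries, with no normalization. RNA was extracted with a Qiagen miRNeasy kit and libraries were made with the NEBNext small RNA set. The submitters' processing notes list STAR 2.5.2, featureCounts 1.5.1 and GRCh38. How reads matching several places were counted is not given in the sources used here. Such reads could lower or split the counts of arms with several loci, and the 3 cluster arms have a single locus each. Libraries were grouped by line and genotype from the labels.

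Counts were analysed with edgeR 4.0.16 in R 4.3.3. filterByExpr (minimum count 10) kept 659 of 1204 miRNAs, and 18 had no count at all. TMM factors and a robust quasi-likelihood fit of 4 group means over 12 libraries were used, with Benjamini-Hochberg adjustment and a threshold of 0.05. The standard error is the log2 fold change divided by the square root of F. Total counts had a median of 5107200. Ratios used log2 of counts with 0.5 added, and exact two-sided permutation tests on ratios and sums were run in scipy 1.17.1. The fit was tested on simulated data. Over miRNAs with a mean of at least 100 counts, deviations from the group means in EV and MPC1 KO libraries of the same number correlated at 0.143, 0.307 and 0.331 in Molm-14 and at 0.404, -0.122 and -0.427 in MV4-11. Libraries of unlike number reached 0.0808 in Molm-14 and 0.622 in MV4-11, so the pairing rests on weak correlations. With 0.1 required of every pair, the numbers were taken to pair the libraries of Molm-14 and not those of MV4-11, from the data alone, since the labels name no shared culture or day. Sequences were matched by mature name to RefSeq for 1068 of 1204 miRNAs. The alternatives were DESeq2 1.42.0, limma-voom (limma 3.58.1), other scalings and filters, replicate number as a block and leaving out each library.

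The miRNAs named are the 3 arms, their opposite arms, the seed relative hsa-miR-1271-5p, miRNAs within 2 Mb, the guide arms of the other clusters and the 3 nearest profiles of each arm. The members, lists and tests were chosen with earlier results of these data known. Deviations of single libraries were singled out after their values were seen.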

Additional observations from a re-analysis of the deposited data

Results flagged for a closer look

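The change on deletion of MPC1 differed between the cell lines for hsa-miR-182-5p and hsa-miR-183-5p when that difference was fitted and tested with edgeR. For hsa-miR-183-5p the log2 fold change was 1.07 higher in Molm-14 than in MV4-11 (adjusted p = 0.00346 from edgeR), with all 3 MPC1 KO libraries below the EV libraries in MV4-11 and all 3 above in Molm-14. For hsa-miR-182-5p it was 0.93 higher (adjusted p = 0.0454 from edgeR), with all 3 MPC1 KO libraries below the EV libraries in MV4-11 and overlap in Molm-14. Of all miRNAs tested, 2.43% had a difference called in this direction and 6.68% in either. All 3 MPC1 KO libraries lay below the EV libraries in MV4-11 for 7.13% of them, and above in Molm-14 for 12.3%. The summed blood markers were 70012 to 83594 CPM in MV4-11 EV, 71853 to 74147 in MV4-11 MPC1 KO, 81741 to 87871 in Molm-14 EV and 97746 to 106127 in Molm-14 MPC1 KO. Not every blood marker followed the sum, since hsa-miR-155-5p and hsa-miR-146a-5p were highest in MV4-11 EV replicate 1. The part of the blood markers in these differences was not tested.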

How the results depend on the processing

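Of the values recomputed under alternatives other than leaving out a library, 166 were counted as kept, 4 newly passed and 1 no longer passed. For tested values, kept means the same direction and side of the threshold. The 166 also hold ranks of likeness, which have neither. hsa-miR-182-5p on deletion of MPC1 in MV4-11 passed with no filter on low counts (-0.60, adjusted p = 0.0120 from edgeR). With replicate number as a block it passed too (-0.62, adjusted p = 0.0294 from edgeR), as with the block in the Molm-14 libraries alone, chosen after seeing the data (-0.62, adjusted p = 0.0375 from edgeR). The numbers were not taken to pair the MV4-11 libraries, so these fits do not rest on a pairing seen in that line. Neither block changed another call of the arms. The adjusted p for the difference of hsa-miR-182-5p was then 0.00854 and 0.0112 from edgeR. hsa-miR-96-5p in Molm-14 passed with upper-quartile factors (0.59, adjusted p = 0.0334 from edgeR). The difference between the lines for hsa-miR-182-5p did not pass with limma-voom (0.97, adjusted p = 0.0588). Leaving out each library in turn gave -0.97 to -0.66 for hsa-miR-183-5p in MV4-11, not passing without MV4-11 MPC1 KO replicate 1. It gave 0.32 to 0.64 for hsa-miR-96-5p in Molm-14, passing only without MV4-11 EV replicate 1 (adjusted p = 0.0495 from edgeR), and 0.71 to 1.11 for the difference of hsa-miR-182-5p, not passing in 7 of 12 fits. Left-out libraries turned the sign of ratios whose tests had not passed. On deletion of MPC1, hsa-miR-182-5p over hsa-miR-183-5p ran from -0.013 to 0.53 in MV4-11 and from -0.18 to 0.22 in Molm-14, with -0.05 without Molm-14 MPC1 KO replicate 3. In Molm-14, hsa-miR-96-5p over hsa-miR-183-5p ran from -0.043 to 0.39 and hsa-miR-96-5p over hsa-miR-182-5p from -0.17 to 0.35. Between the lines, hsa-miR-96-5p over hsa-miR-182-5p ran from 0.42 to 0.73 and passed in 1 case, with MV4-11 MPC1 KO replicate 2 left out (adjusted p = 0.0195, exact permutation test). The number of miRNAs called in MV4-11, 20, was 12 without MV4-11 MPC1 KO replicate 1, 38 without Molm-14 EV replicate 2 and 34 without Molm-14 EV replicate 3. The number with a difference between the lines, 44, was 22 to 28 when the library left out was replicate 1 or 2 of MV4-11 EV, replicate 1 or 3 of MV4-11 MPC1 KO, or 1 of the Molm-14 MPC1 KO libraries. With a mean of at least 100 counts required, fewer miRNAs were tested, 212 instead of 408 differed between the EV groups and 214 instead of 411 between the MPC1 KO groups, and hsa-miR-96-5p was not tested. Upper-quartile factors moved the median of all miRNAs to -0.12 in MV4-11, to 0.18 for the difference of effects and to -0.12 between the EV groups, and beside these medians hsa-miR-183-5p had -0.89, 1.26 and 0.80. The calls were then 10 higher and 15 lower in MV4-11 against 13 and 7 with TMM, 30 and 23 in Molm-14 against 18 and 27, and 31 and 13 for the difference against 16 and 28. With total counts and no factors they were 20 and 6 in MV4-11. The depth limits hsa-miR-96-5p most, with 20 to 37 counts in an MV4-11 library.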

Other observations

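A pair of arms with several loci were far lower than a relative with a single locus, although arms with several loci were not lower as a whole. The 38 arms in the table with 2 or more loci had a median of mean levels of 3.05 CPM and 23 of them were tested, while the 1030 with 1 locus had 1.66 CPM and 558 were tested. hsa-miR-29b-3p, which has 2 loci in the RefSeq table, 1 of them within 2 Mb of the cluster, had 0 to 0.539 CPM over the 12 libraries, while hsa-miR-29a-3p, with a single locus beside it, had 3045 to 3805 CPM. hsa-miR-19b-3p, with 2 loci, had 11.7 to 102 CPM and hsa-miR-19a-3p, with 1, had 1267 to 3244 CPM. hsa-miR-92a-3p went the other way, with 2 loci and 2915 to 6587 CPM. The blood marker hsa-miR-181a-5p, with 2 loci, had 0 to 1.41 CPM. The cause was not tested, and hsa-miR-19b-3p is also among the nearest profiles of hsa-miR-182-5p.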
